A study of Mus musculus with 12 samples.

Results

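WNT ligands are secreted glycoproteins through which neighbouring cells signal to one another, and the mouse genome encodes 19 of them. Of these, 10 ligand genes were examined here (Wnt2b, Wnt4, Wnt5a, Wnt5b, Wnt6, Wnt7b, Wnt9a, Wnt10a, Wnt10b and Wnt11), chosen by name and read out by their Ensembl gene IDs among the 37583 IDs counted in each RNA-seq library. The remaining 9 (Wnt1, Wnt2, Wnt3, Wnt3a, Wnt7a, Wnt8a, Wnt8b, Wnt9b and Wnt16) are given for comparison. The 10 were chosen with earlier results of these data known. The cells were Ocy454, a mouse line derived from long bone and described as osteocytic, grown from a single-cell sub-clone that carries a temperature-sensitive T antigen. Control cells expressed Cas9 and, per the study's methods, an empty guide RNA lentivirus. DKO cells are labelled as deleted for both HDAC4 and HDAC5, and whether they represent 1 clone or several is not given in the sources used here. Both were kept static or subjected, by orbital rotation of the culture for 3 h, to fluid flow shear stress (FFSS), with 3 libraries in each of the 4 groups. The comparisons asked whether the ligand genes respond to flow and whether that response differs between control and DKO cells. They also asked how the level at rest differs between these cells. An effect of the deletion cannot be told apart here from other differences between the lines.

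WNT proteins are lipid-modified by the acyltransferase PORCN, carried to the cell surface by WLS and bound on target cells by frizzled receptors. With LRP5 or LRP6 as co-receptor, binding stabilises β-catenin and turns on TCF/LEF target genes. With ROR2, RYK or PTK7, it acts on cell shape and movement. In bone the first route drives osteoblast formation, WNT1 and WNT10B are known promoters of bone mass, and the osteocyte product sclerostin blocks LRP5 and LRP6. WNT5A, WNT5B and WNT11 are best known for signaling without β-catenin, WNT4 and WNT9A for limb and joint development, WNT7B for bone formation, and WNT6 and WNT10A for epithelial and mesenchymal development.

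In the mm9 annotation all 10 are protein-coding genes. On chromosome 1 lie Wnt6 (ENSMUSG00000033227) at 74818466 to 74831893 (+ strand) and Wnt10a (ENSMUSG00000026167) at 74838090 to 74850753 (+ strand). On chromosome 15 lie Wnt7b (ENSMUSG00000022382) at 85365869 to 85412251 (− strand) and Wnt10b (ENSMUSG00000022996) at 98602184 to 98608581 (− strand). Chromosome 3 carries Wnt2b (ENSMUSG00000027840) at 104747723 to 104764627 (− strand), chromosome 4 Wnt4 (ENSMUSG00000036856) at 136833404 to 136855641 (+ strand) and chromosome 6 Wnt5b (ENSMUSG00000030170) at 119382549 to 119494336 (− strand). Chromosome 7 carries Wnt11 (ENSMUSG00000015957) at 105983622 to 106003705 (+ strand), chromosome 11 Wnt9a (ENSMUSG00000000126) at 59120430 to 59147054 (+ strand) and chromosome 14 Wnt5a (ENSMUSG00000021994) at 29317936 to 29340633 (+ strand). Exons of Wnt5a, Wnt7b and Wnt11 overlap those of a gene on the opposite strand, and counting without strand leaves out reads from such shared stretches.

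Wnt11 and Wnt5b had at least 108 counts in each static control library and were called between genotypes in both conditions, and the DNA before their start sites is therefore shown. Each line holds the 250 bases before the first RefSeq start site, 5′ to 3′ on the gene's strand. The Wnt11 window is chr7:105983372-105983621 (+) and the Wnt5b window chr6:119494366-119494615 (−). Both were found by exact match of the RefSeq sequence (table of build GRCm38.p6) to the mm9 genome, and both are upstream of the annotated gene, outside its exons. Capitals mark matches, on either strand, to the motifs named after the sequences.
Wnt11: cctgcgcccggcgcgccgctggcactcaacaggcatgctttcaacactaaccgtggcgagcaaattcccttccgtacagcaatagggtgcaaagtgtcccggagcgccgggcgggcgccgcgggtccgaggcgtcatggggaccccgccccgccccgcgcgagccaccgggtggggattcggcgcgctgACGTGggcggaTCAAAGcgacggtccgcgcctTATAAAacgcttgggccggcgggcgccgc
Wnt5b: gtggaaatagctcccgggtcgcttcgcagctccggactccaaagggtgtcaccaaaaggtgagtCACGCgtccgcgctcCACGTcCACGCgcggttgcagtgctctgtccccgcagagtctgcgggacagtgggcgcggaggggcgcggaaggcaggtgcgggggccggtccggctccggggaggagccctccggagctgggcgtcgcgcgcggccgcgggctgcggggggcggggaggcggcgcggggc

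The search covered 6 motifs. Hypoxia-inducible factors bind the core ACGTG, and the variant GCGTG was searched as well. MEF2, a transcription factor held in check by class IIa HDACs, was searched as CTANNNNTAG. TCF/LEF, which act with β-catenin, were searched as CTTTGA, CREB/ATF factors as TGACGTCA, and the TATA box as TATAAA. The Wnt11 window held the hypoxia core ACGTG 61 bases before the start, the TCF/LEF motif 50 bases before it on the opposite strand, and the TATA box at 29 bases. The Wnt5b window held the same hypoxia core 171 bases before the start, and its variant at 186 and 165 bases, all on the opposite strand. No printed matches overlapped each other. Among 32851 RefSeq windows of this length, 16.6% held ACGTG, 28.2% the variant, 13.8% the TCF/LEF motif, 12.4% the TATA box, 3.2% the MEF2 motif and 1.55% the CREB/ATF motif. RefSeq windows were found for 7 of the 10 ligands. Of their 10 windows, 8 held the hypoxia variant, 3 the core, 2 the TCF/LEF motif, 1 the TATA box, and 0 the MEF2 or the CREB/ATF motif. G and C made up 53.2% to 85.2% of the bases of these windows. The shares over all RefSeq windows were not matched for G and C content, and enrichment of a motif was not tested. A second Wnt11 start (at 105987355) and the other Wnt5b starts (at 119417229 and 119399404) lie in introns of the mm9 gene models, and counts per gene do not tell which start was used.

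The libraries held between 17.6 and 19.2 M reads assigned to genes. The floor used for detection, 3 counts, corresponds to 0.156 to 0.171 counts per M assigned reads, without TMM scaling. CPM values elsewhere are counts over the library's TMM-scaled total in M reads. A count over a whole gene does not test a small deletion within it, and transcripts of both targeted genes were present in DKO cells. Both Hdac4 IDs passed as lower in static and FFSS DKO cells. Hdac5 had 2473, 2706 and 2421 counts in static control and 1503, 1461 and 1634 in static DKO cells, and passed as lower. Under FFSS it was not lower in DKO cells, with 1755, 1457 and 1664 counts in control and 1687, 1553 and 1660 in DKO libraries, or 81.2 and 92.8 CPM on average (log2 fold change 0.19, adjusted p of 0.0512 in edgeR). Control FFSS replicate 1 stood apart from replicates 2 and 3. Its log2 CPM differed from theirs by 0.593 and 0.599 (root mean square over genes), against 0.324 to 0.348 for the 9 replicate pairs of the other groups. Reads outside genes made up 6.05% of the library in control FFSS replicate 1 and 9.45% and 10.3% in replicates 2 and 3, against 5.25% to 5.36% in static control, 7.27% to 7.35% in static DKO and 8.16% to 8.80% in DKO FFSS cells. Results that rest on this library are therefore given with and without it. The labels do not say that replicates were separate cultures, so p-values measure the spread between these libraries only.

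Ocy454 cells transcribed several WNT ligands. A gene was taken as detected where each of the 3 libraries of a group had more than 3 counts, and as expressed where the group mean reached 1 CPM. All 10 ligand genes were detected in at least 1 group, and 8 of them in every group. The exceptions were Wnt7b and Wnt10a, which were detected in control but not in DKO cells. Expression at 1 CPM or more was met by 9 of the 10 in at least 1 group and by 7 in all groups. Wnt10a stayed below it throughout, Wnt2b reached it in DKO cells and Wnt7b in control cells. Of the 9 comparison ligands, Wnt1 was the single gene detected, with 23 to 128 counts per library. The other 8 had at most 3 counts in any library. Since the 10 were chosen with earlier results of these data known, their detection as a set is not a result of its own. In bulk RNA such as this, fewer cells of a type and less RNA per cell cannot be told apart.

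**Figure D1:**
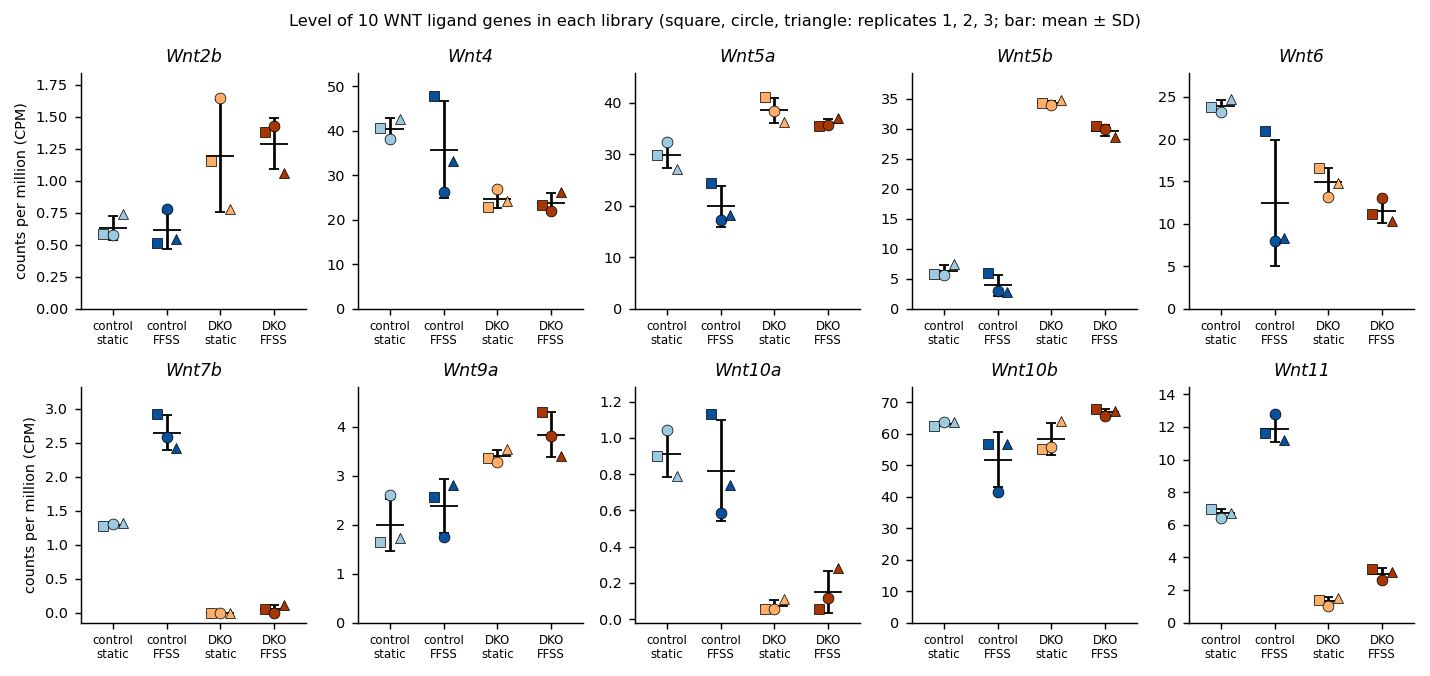
Level of the 10 WNT ligand genes in each library, in CPM on TMM-scaled library totals (vertical axis, starting at or just under 0 and scaled for each gene), for control and DKO cells, static and FFSS. Symbols are single libraries and bars the mean ± SD of 3; Wnt11 and Wnt7b are higher in every control FFSS than in every static control library, and Wnt5b is high in all 6 DKO libraries.

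Levels of different genes were compared per length, as CPM per kilobase of exon (RPKM). In static control cells Wnt10b was the most abundant ligand transcript, at 27.1 ± 0.315 RPKM (SD, n = 3), which was 45.9% of all WNT RPKM. Wnt6 followed at 11.6 ± 0.369 RPKM and Wnt4 at 9.64 ± 0.552 RPKM. Next came Wnt5a at 3.81 ± 0.325, Wnt5b at 2.40 ± 0.403 and Wnt11 at 1.85 ± 0.0788 RPKM. The remaining members were below 1 RPKM: Wnt9a at 0.599 ± 0.160, Wnt10a at 0.369 ± 0.0512, Wnt7b at 0.293 ± 0.00552 and Wnt2b at 0.176 ± 0.0258. Wnt1, another bone-active ligand, stood between Wnt11 and Wnt9a at 1.24 ± 0.104 RPKM.

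In static DKO cells Wnt10b again led, at 25 ± 2.16 RPKM or 41.9% of the total, but Wnt5b was second at 13.1 ± 0.153 RPKM. Its share of WNT RPKM was 22.0% ± 0.526, against 4.06% ± 0.60 in static control cells. Wnt6 held 12.1% and Wnt4 9.90% in static DKO cells, against 19.6% and 16.3% in static control cells. Wnt11 made up 3.13% ± 0.146 of the total in static control, 7.29% ± 2.03 in control FFSS, 0.602% ± 0.0927 in static DKO and 1.35% ± 0.133 in DKO FFSS cells. The composition thus differed between genotypes, while in static cells the sum over all 19 ligand genes overlapped. The sum was 59.0 ± 1.13 RPKM in static control (58.3 to 60.3), 59.5 ± 2.12 in static DKO (57.9 to 61.9) and 60.8 ± 0.869 in DKO FFSS cells (59.9 to 61.7). In control FFSS it was 46.7 ± 10.6 RPKM, with 58.0 in replicate 1, 37.0 in replicate 2 and 45.1 in replicate 3, all below the lowest static control and the lowest DKO FFSS library.

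**Figure D2:**
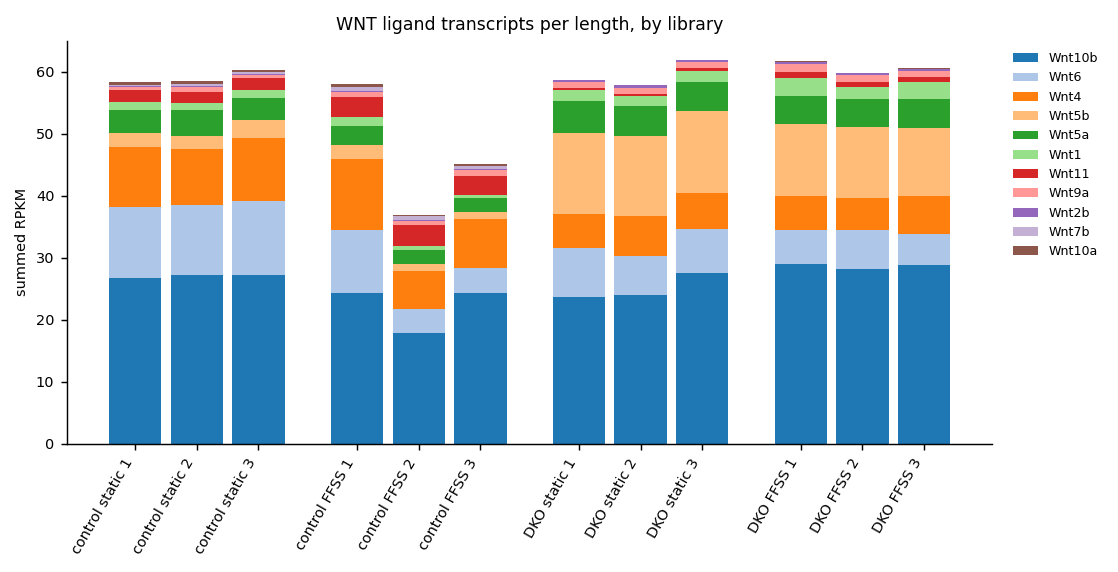
Stacked RPKM (vertical axis, from 0) of the 10 ligand genes and Wnt1 in each of the 12 libraries, 1 colour per gene. The sums lie between 57.9 and 61.9 RPKM in 10 libraries and at 37.0 and 45.1 RPKM in control FFSS replicates 2 and 3, and the Wnt5b segment is wide in the 6 DKO libraries.

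With FFSS in control cells the lowest adjusted p among the 9 ligands tested was that of Wnt11, a ligand known for non-canonical signaling in cell movement. Wnt11 had 132, 123 and 128 counts in static control libraries and 227, 262 and 226 in FFSS control libraries. Every FFSS library was above every static one. The level went from 6.70 ± 0.286 to 11.9 ± 0.823 CPM (SD, n = 3 each), a log2 fold change of 0.82 (SE 0.12) with an adjusted p of 0.000248 in edgeR's quasi-likelihood test (Benjamini-Hochberg over 14904 genes), short of the 2-fold limit used for a call. The rise was 0.79, 0.92 and 0.73 on the log2 scale in replicates 1, 2 and 3, so that the library that stood apart showed it too.

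Wnt7b, a known promoter of bone formation, followed the same direction at a lower level. Its counts were 24, 25 and 25 in static control and 57, 53 and 49 in FFSS control libraries. These groups did not overlap, at 1.30 ± 0.0244 and 2.65 ± 0.257 CPM. The filter of the main test drops any gene at 0 in 2 or more libraries, and Wnt7b was dropped for its zeros in DKO cells. With edgeR's own filter by expression it passed, with a log2 fold change of 1.04 (SE 0.23) and an adjusted p of 0.00545, and without any filter the value was 1.02 with an adjusted p of 0.00665.

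Among the ligand genes that were lower with FFSS in control cells, Wnt5a was the most firmly measured. Wnt5a had 565, 620 and 517 counts in static control and 476, 351 and 366 in FFSS control libraries. No FFSS library reached the static range, and the level went from 29.8 ± 2.54 to 19.9 ± 3.97 CPM. The log2 fold change was −0.58 (SE 0.11) with an adjusted p of 0.00203 in the edgeR test.

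Wnt6, Wnt5b and Wnt10b also passed as lower, but less firmly. Wnt6 had 450, 446 and 470 counts in static control and 409, 163 and 169 in FFSS control libraries. Replicates 2 and 3 were far below the static libraries, and replicate 1 lay just under them. The log2 fold change of Wnt6 was −0.95 (SE 0.31) with an adjusted p of 0.0359 in edgeR, and −1.55 with an adjusted p of 1.04e-12 without control FFSS replicate 1. Wnt5b showed the same pattern, with 108, 109 and 143 counts in static and 116, 61 and 57 in FFSS libraries. Its groups overlapped because of replicate 1, and the log2 fold change of −0.69 (SE 0.23, adjusted p of 0.0316 in edgeR) became −1.12 (adjusted p of 3.49e-07) without that library. Wnt10b, the most abundant ligand, went from 1180, 1222 and 1209 counts to 1106, 851 and 1148. Its groups did not overlap, and its log2 fold change was −0.29 (SE 0.10, adjusted p of 0.0386 in edgeR).

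These 3 differences passed in some fits and not in others. None of the 3 passed in a fit of the 6 control libraries (edgeR adjusted p of 0.137 for Wnt6, 0.142 for Wnt5b and 0.133 for Wnt10b). Wnt6 and Wnt5b did not pass without a filter on low counts (0.0893 and 0.0734), nor Wnt10b with library totals alone (−0.17, adjusted p of 0.172). Without control FFSS replicate 2, Wnt6 had a log2 fold change of −0.71 (edgeR adjusted p of 0.0980), Wnt5b −0.53 (adjusted p of 0.115) and Wnt10b −0.15 (adjusted p of 0.121). Without control FFSS replicate 3 the values were −0.73 (adjusted p of 0.114) for Wnt6 and −0.50 (adjusted p of 0.115) for Wnt5b. All 3 were also lost without control static replicate 1 (Wnt6 −0.95, Wnt5b −0.75 and Wnt10b −0.30, adjusted p of 0.0793, 0.0520 and 0.0835) and without control static replicate 3 (−0.92, −0.54 and −0.29, adjusted p of 0.0872, 0.125 and 0.0945). Without control static replicate 2, Wnt6 (−0.97, adjusted p of 0.0732) and Wnt10b (−0.29, adjusted p of 0.0924) did not pass. With the share of reads outside genes as a covariate, the log2 fold change was 0.04 for Wnt6, 0.09 for Wnt5b and −0.19 for Wnt10b, none of them passing, and −0.24 for Wnt5a (adjusted p of 0.221). The same fit gave 0.95 for Wnt11, which passed. Within each genotype, every FFSS library had a larger share of reads outside genes than every static library. The covariate and FFSS can therefore not be fully told apart, and this fit does not decide whether these genes respond to flow. Control FFSS replicate 1 had both the lowest share of reads outside genes and the highest Wnt5b and Wnt6 of its group.

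The remaining ligands did not pass in control cells. Wnt4 had 769, 730 and 810 counts in static and 928, 537 and 672 in FFSS libraries, a log2 fold change of −0.18 (SE 0.17, adjusted p of 0.431 in edgeR). Without control FFSS replicate 1 it was −0.44 and passed (adjusted p of 0.000160). Wnt9a had 31 to 50 counts in static and 36 to 57 in FFSS libraries, Wnt2b 11 to 14 and 10 to 16, and Wnt10a 15 to 20 and 12 to 22, all overlapping. Of the 9 ligands tested, 1 thus passed as higher and 4 as lower with FFSS in control cells, against 17.7% and 18.1% of all genes tested. With the 2-fold limit, 0 were called higher or lower, against 3.96% and 1.97% of all genes. The median log2 fold change of the 9 was −0.18, and that of all genes 0.01.

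**Figure D3:**
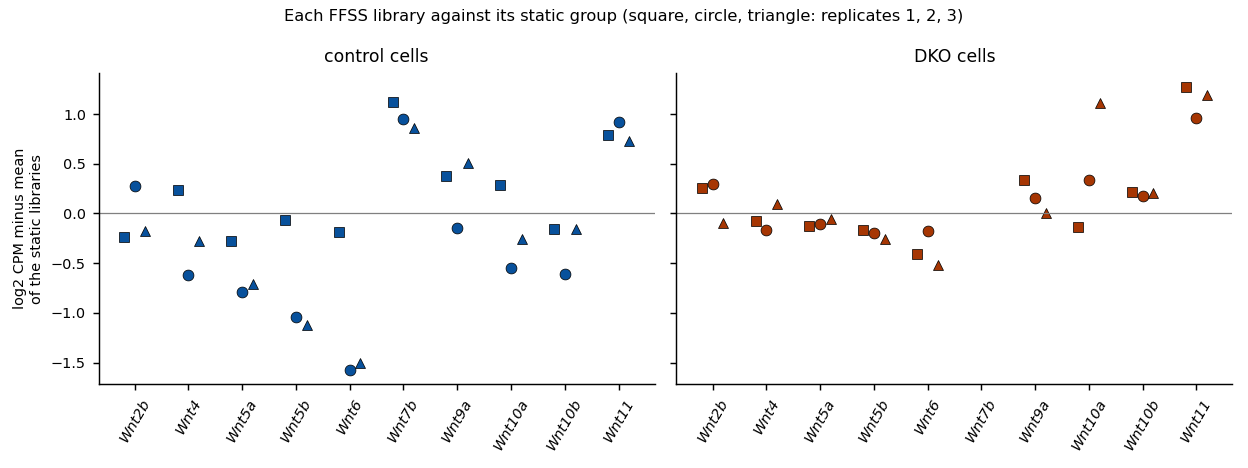
Difference of each FFSS library from the mean of its static group, on the log2 CPM scale (vertical axis), for each ligand gene in control cells (left) and DKO cells (right). Wnt7b is not drawn for DKO cells, where it had 0 to 2 counts; Wnt11 is above 0 in all 6 FFSS libraries, and Wnt5b and Wnt6 in control cells are near 0 in replicate 1 and below −1 in replicates 2 and 3.

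In DKO cells Wnt11 was the single ligand gene that passed with FFSS. It had 25, 19 and 27 counts in static DKO and 59, 44 and 55 in FFSS DKO libraries, and the groups did not overlap. The level went from 1.31 ± 0.236 to 2.98 ± 0.332 CPM, a log2 fold change of 1.19 (SE 0.17) with an adjusted p of 0.00670 in edgeR, past the 2-fold limit. Wnt11 was thus 1 of 9 ligands passing and called higher, against 0.376% of all genes passing and 0.0134% (2 of 14904 genes) called higher. No ligand passed or was called lower (0 of 9), against 0.497% and 0.0738% of all genes. At an unadjusted p under 0.05, the count over both directions was also 1, and DESeq2 and limma-voom each passed 1.

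None of the other 8 ligands tested passed in DKO cells. Wnt5a had 747, 700 and 652 counts in static DKO and 640, 601 and 662 in FFSS DKO libraries, a log2 fold change of −0.10 (SE 0.11). Wnt5b had 624, 619 and 626 counts against 552, 504 and 512, a log2 fold change of −0.21 (SE 0.17, adjusted p of 0.680 in edgeR), although the groups did not overlap. Wnt6 (301, 241 and 268 counts against 202, 220 and 185) also separated without passing, at −0.37 (SE 0.32). Wnt10b had 1001, 1017 and 1155 counts against 1225, 1103 and 1200, which overlap as counts but not as CPM (55.0 to 64.1 against 65.6 to 67.7), and was at 0.20 (SE 0.10), not passing. In a fit of the 6 DKO libraries alone, Wnt6, Wnt5b and Wnt10b passed (Wnt6 −0.36, Wnt5b −0.20 and Wnt10b 0.20), which with Wnt11 made 4 ligands. Over all genes, that fit called 46 against 13 in the main fit.

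Whether FFSS acted differently in DKO and control cells was tested by the interaction, that is, the FFSS effect in DKO cells less that in control cells. No ligand passed in either direction, against 2.28% of all genes higher and 1.68% lower, and 0 were called, against 0.376% and 0.275%. At an unadjusted p under 0.05 there were 2 (Wnt5a and Wnt10b), DESeq2 passed 1 and limma-voom 0. The estimates were 0.49 (SE 0.16, adjusted p of 0.10) for Wnt5a, 0.49 (SE 0.14, adjusted p of 0.0752) for Wnt10b and 0.37 (SE 0.21, adjusted p of 0.299) for Wnt11, all from edgeR. Wnt6, at 0.58 (SE 0.44), and Wnt5b, at 0.48 (SE 0.28), had wide errors. Without control FFSS replicate 1, 5 ligands passed, all with a positive interaction: Wnt6 at 1.18, Wnt5b at 0.91, Wnt5a at 0.66, Wnt10b at 0.56 and Wnt4 at 0.39. Over all genes, interaction calls went from 97 to 1138 in that fit. The Wnt11 interaction was 0.36 without that library (adjusted p of 0.25), so a difference between genotypes in its response to flow was not detected either way.

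Fold changes between DKO and control cells reached larger values than those with flow. Wnt5b was the largest gain among the 9 ligands tested. Its counts, given above, were 108 to 143 in static control and 619 to 626 in static DKO libraries, far from any overlap. The level was 6.30 ± 1.06 CPM in static control and 34.3 ± 0.403 CPM in static DKO cells, a log2 fold change of 2.44 (SE 0.19) with an adjusted p of 3.62e-07 in edgeR. Under FFSS the values were 3.92 ± 1.77 and 29.7 ± 0.967 CPM, a log2 fold change of 2.93 (SE 0.20, adjusted p of 1.20e-07).

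Wnt11 fell in DKO cells, in the opposite direction to its rise with flow. It had 123 to 132 counts in static control and 19 to 27 in static DKO libraries. The log2 fold change was −2.36 (SE 0.15) with an adjusted p of 2.09e-08 in edgeR, and under FFSS it was −1.99 (SE 0.13, adjusted p of 2.29e-08). Over the 4 groups its order was control FFSS, static control, DKO FFSS and static DKO, with no overlap between any neighbours. DKO FFSS cells, at 2.98 CPM, thus remained below static control cells at 6.70 CPM.

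Wnt10a and Wnt7b, at low level in control cells, were at or near the floor in DKO cells. Wnt10a had 17, 20 and 15 counts in static control and 1, 1 and 2 in static DKO libraries, and 22, 12 and 15 against 1, 2 and 5 under FFSS. The ratio of control to DKO counts, scaled by TMM-scaled totals, was 12.4 (95% counting interval 4.56 to 47.2) in static cells. In FFSS cells it was 5.37 (2.52 to 13.1). The adjusted p in edgeR was 5.87e-05 in static and 0.000561 in FFSS cells. Wnt7b had 0 counts in all 3 static DKO libraries and 1, 0 and 2 in FFSS DKO libraries. It was at least 7.83-fold lower in static DKO than in static control cells, taking 3 counts per library (0.165 CPM) as the floor. Under FFSS the ratio of control to DKO counts, scaled in the same way, was 46.5 (15.6 to 228). No p is given for Wnt7b between genotypes, since it passes a filter on low counts only through its control libraries.

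The other differences between genotypes were smaller. Wnt4 had 417, 491 and 435 counts in static DKO cells, below all static control libraries, with a log2 fold change of −0.71 (SE 0.17, adjusted p of 0.00379 in edgeR). Under FFSS it was −0.58 (SE 0.17, adjusted p of 0.0122), with overlapping groups. The FFSS value of Wnt4 was −0.32 without control FFSS replicate 1 and did not pass in a fit of the 6 FFSS libraries (−0.56, adjusted p of 0.0601). Wnt5a was higher in DKO cells, by 0.37 (SE 0.11, adjusted p of 0.0113) in static and 0.86 (SE 0.11, adjusted p of 2.01e-05) in FFSS cells on the log2 scale. Without control static replicate 3 or DKO static replicate 1 the static value was 0.31 or 0.33 and no longer passed (adjusted p of 0.0588 and 0.0505).

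Wnt9a, a ligand of the forming joint, had 61, 60 and 64 counts in static DKO libraries, above all 3 static control libraries, with a log2 fold change of 0.77 (SE 0.21, adjusted p of 0.00745 in edgeR). Under FFSS it had 78, 64 and 61 counts in DKO cells, a log2 fold change of 0.69 (SE 0.21, adjusted p of 0.0107) that was 0.60 without DKO FFSS replicate 1 (adjusted p of 0.0503) and 0.50 with library totals alone (adjusted p of 0.0516). Wnt2b, the scarcest of the 10 ligands in static control cells per length, had 21, 30 and 14 counts in static DKO libraries. In FFSS DKO libraries it had 25, 24 and 19. The log2 fold changes of Wnt2b were 0.91 (SE 0.31, adjusted p of 0.0231 in edgeR) in static and 1.06 (SE 0.31, adjusted p of 0.00924) in FFSS cells. The FFSS value of Wnt2b passed in all 14 alternatives (0.86 to 1.27), but was short of 2-fold with library totals alone (0.86) and without control FFSS replicate 1 (0.95), control FFSS replicate 3 (0.98) or DKO FFSS replicate 2 (0.99). The static difference of Wnt2b no longer passed without DKO static replicate 2 (0.61, adjusted p of 0.135), control static replicate 1 (0.86, adjusted p of 0.0685) or control static replicate 2 (0.85, adjusted p of 0.0714).

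Wnt10b and Wnt6 did not pass between genotypes in static cells in edgeR. Wnt10b overlapped between genotypes in static cells (log2 fold change −0.12, SE 0.10) and was higher in DKO cells under FFSS by 0.37 (SE 0.10, adjusted p of 0.00632 in edgeR). That value was 0.23 without control FFSS replicate 2 and, with library totals alone, 0.18 and no longer passing (adjusted p of 0.119). Wnt6 was lower in all 3 static DKO than in all 3 static control libraries, yet its log2 fold change of −0.68 (SE 0.30) did not pass in edgeR (adjusted p of 0.0822). It passed in 4 of 14 alternatives, namely DESeq2 (adjusted p of 0.0270), limma-voom (0.0414), library totals alone (0.0346) and the fit of 6 libraries (1.92e-08), at −0.77 to −0.68. Under FFSS it was −0.11 (SE 0.32), and without control FFSS replicate 1 it turned to 0.50 and passed (adjusted p of 0.000587).

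In static cells, 4 of the 9 ligands tested passed as higher and 3 as lower in DKO, against 27% and 27.2% of all genes. With the 2-fold limit 1 was called higher (Wnt5b) and 2 lower (Wnt11 and Wnt10a), against 7.98% and 7.3% of all genes. Under FFSS, 5 passed as higher and 3 as lower, against 27% and 29.6% of all genes, and 2 were called higher (Wnt5b and Wnt2b) and 2 lower (Wnt11 and Wnt10a), against 8.25% and 8.96%. The median log2 fold change of the 9 was −0.12 in static and 0.37 in FFSS cells, beside 0.01 and −0.05 for all genes.

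**Figure D4:**
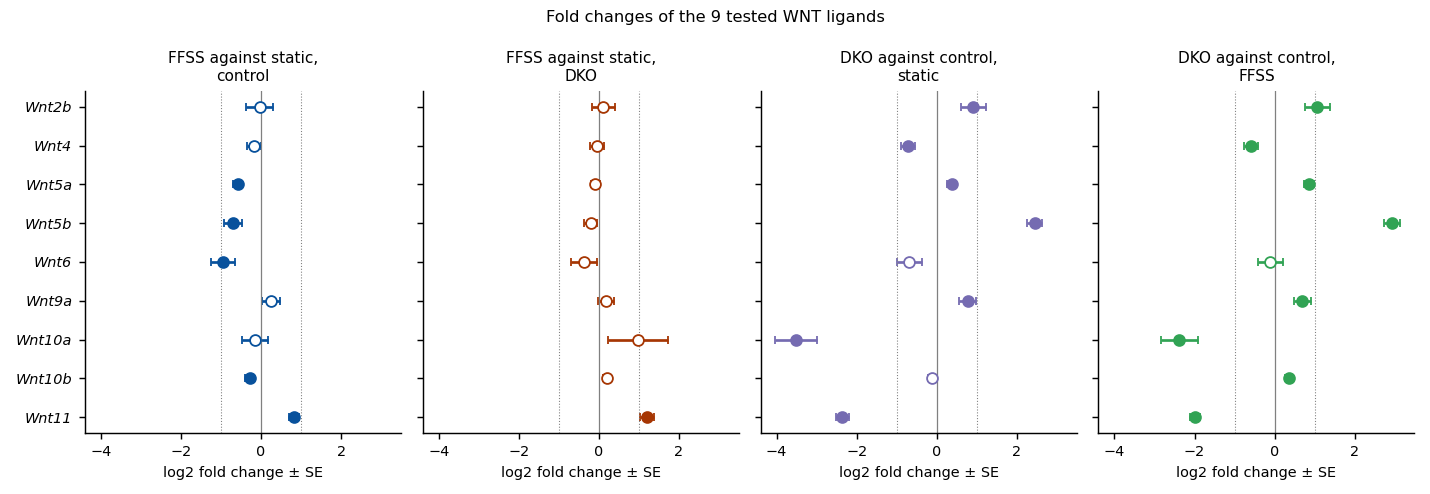
Log2 fold changes ± SE (horizontal axis) from edgeR for the 9 ligand genes that passed the filter, in 4 comparisons; filled symbols have an adjusted p under 0.05, and dotted lines mark a 2-fold change. Wnt11 is right of 0 in both FFSS comparisons and left of −1 in both genotype comparisons, and Wnt5b is right of 2 in both genotype comparisons.

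Of the ligand genes, Wnt6 and Wnt10a are neighbours on chromosome 1, 6196 bases apart and on the same strand, and Wnt10b and Wnt1 on chromosome 15 are 11706 bases apart and point away from each other. Differences between neighbours were not tested, and their values stand side by side here. In static DKO cells Wnt10a was called lower, and Wnt6 was at −0.68, passing in some fits only. Wnt1 was higher in DKO FFSS than in control FFSS cells by 1.57 on the log2 scale (SE 0.31, adjusted p of 0.000707 in edgeR), against 0.37 for Wnt10b. This Wnt1 value ran from 1.28 to 2.21 over 14 alternatives and passed in all 14. Wnt1 had 54, 54 and 62 counts in static control, 69, 30 and 23 in control FFSS, 72, 68 and 81 in static DKO and 128, 78 and 115 in FFSS DKO libraries. It did not pass in the other comparisons. With FFSS in control cells it was at −0.55, and at −1.19 and passing without control FFSS replicate 1 (adjusted p of 0.000119 in edgeR). In fits of 6 libraries it passed with FFSS in DKO cells (0.59, adjusted p of 0.0111, and 0.98, adjusted p of 0.00111, in the covariate fit) and between genotypes in static cells (0.45, adjusted p of 0.0138). The interaction was 1.12 (SE 0.43, adjusted p of 0.149), and was 1.77 and passed without control FFSS replicate 1 (adjusted p of 1.33e-05).

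For each ligand called in some comparison, the genes with the most similar pattern were sought as those with the smallest root mean square difference of centred log2 CPM over the 12 libraries. Nearest to Wnt11 was Acta1, skeletal muscle α-actin, at 0.190, followed by Pdpn, the early osteocyte glycoprotein podoplanin, at 0.339 and Arl4c, a small GTPase, at 0.344. Nearest to Wnt5b were Lamb3, a laminin chain, at 0.161, Arl4d at 0.173 and Lgr6, a receptor for R-spondins, at 0.182. Wnt10a was closest to Trim16 (0.311), Cpne8 (0.334) and Fjx1 (0.336), and Wnt2b to Trim13 (0.171), 4831426I19Rik (0.225) and Ammecr1 (0.226). These are descriptions over the libraries in which the differences themselves were found.

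The genes that release and receive WNT proteins also differed by genotype. Porcn had 515, 521 and 501 counts in static control and 147, 117 and 135 in static DKO libraries. It fell by 1.87 on the log2 scale (SE 0.10, adjusted p of 2.17e-09 in edgeR), and by 1.77 under FFSS. Wls, the carrier, was higher in DKO cells by 0.59 and 0.70, and Notum, a secreted enzyme that inactivates WNT proteins, did not pass in edgeR (0.54 and 0.59, adjusted p of 0.114 and 0.0835), but passed under FFSS with DESeq2 and limma-voom.

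Frizzled receptors moved in both directions. Of 10 genes, 9 were tested, and Fzd10 had 0 counts in all 12 libraries. In static DKO cells 4 passed as higher and 4 as lower, against 27% and 27.2% of all genes. Fzd8 was higher by 1.53 (SE 0.08), with 872 to 999 counts in static control and 2547 to 2577 in static DKO libraries, and Fzd9 by 1.45 (SE 0.25). Fzd4 fell by 1.24 (SE 0.14), and Fzd1, which with Fzd5 led the frizzled transcripts of static control cells at 34.7 and 32.4 RPKM, fell by 1.00. Under FFSS, Fzd8 was higher in DKO than in control cells by 2.37 and Fzd5 by 1.78.

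Of the 24 pathway genes tested, Fzd5, a receptor for WNT5A among others, was the single one called with FFSS in control cells. Fzd5 was called lower, against 1.97% of all genes called lower and 3.96% called higher. It had 4387, 4043 and 4365 counts in static control and 2302, 1251 and 1544 in FFSS control libraries. The groups did not overlap, and the log2 fold change was −1.39 (SE 0.19) with an adjusted p of 0.000493 in edgeR. Without control FFSS replicate 1 it was −1.71, and with the share of reads outside genes as a covariate −0.84, passing but short of 2-fold. In DKO cells it was −0.23 (SE 0.18).

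Of the co-receptors, Lrp5 was higher in static DKO cells by 1.23 (SE 0.12, adjusted p of 2.35e-06 in edgeR), with 3757, 3848 and 3978 against 8357, 8961 and 8622 counts, and by 1.79 under FFSS. Ror2, which pairs with WNT5A, fell by 0.77 in static cells. Its relative Ror1, named after its values were seen, had 83, 79 and 65 counts in static control and 0, 1 and 0 in static DKO libraries. The ratio of these counts, scaled by TMM-scaled totals, was 216 (95% counting interval 38.4 to 8579). Ror1 was kept out of the test by the filter. Under FFSS it was at least 15.0-fold lower in DKO cells, taking 3 counts per library as the floor. Ryk, the most abundant co-receptor transcript per length, did not pass between genotypes at rest (−0.07, adjusted p of 0.444 in edgeR). Under FFSS it passed as higher in DKO cells (0.28, adjusted p of 0.00493 in edgeR). With FFSS in control cells Ryk fell by 0.33 on the log2 scale (adjusted p of 0.00480).

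In the R-spondin axis, which protects frizzled receptors from removal by ZNRF3 and RNF43, the receptors Lgr4 and Lgr6 were higher in static DKO cells by 2.70 (SE 0.08) and 2.49 (SE 0.20) on the log2 scale. Lgr4 had 572 to 645 counts in static control and 3468 to 4108 in static DKO libraries. The third such receptor, Lgr5, was called lower, at a log2 fold change of −1.74 (SE 0.43, adjusted p of 0.00330 in edgeR) in static and −1.41 (SE 0.41, adjusted p of 0.00968) in FFSS cells, at 11 to 14 counts in static control and 2 to 5 in static DKO libraries. Rnf43 fell by 1.15 (SE 0.24) in static cells, but under FFSS it was at −0.35, not passing (adjusted p of 0.267 in edgeR). Its FFSS groups overlapped, with 456, 211 and 230 counts in control and 219, 187 and 217 in DKO libraries. The highest of these was control FFSS replicate 1. Znrf3 fell by 0.56 in static and 0.70 in FFSS cells, and Rspo3, an R-spondin, was higher by 0.52 in static and 1.02 in FFSS cells. Rspo4 had 0 counts and Rspo1 at most 1 count in every library.

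Over the 28 pathway genes, of which 24 were tested, 11 passed as higher and 9 as lower in static DKO cells (against 27% and 27.2% of all genes), with 5 called in each direction (against 7.98% and 7.3%), and 12 and 7 passed under FFSS (against 27% and 29.6%). With FFSS in control cells 1 passed as higher and 11 as lower, against 17.7% and 18.1% of all genes. In DKO cells 0 passed, against 0.376% higher and 0.497% lower, with 5 at an unadjusted p under 0.05 in edgeR and 0 by DESeq2 or limma-voom. A fit of the 6 libraries of the comparison passed 7 in control and 6 in DKO cells, and the covariate fit 9 and 3. The interaction passed for 3 of the 24 genes, 2 as higher (Fzd5 and Fzd8) and 1 as lower (Fzd6), against 2.28% and 1.68% of all genes. It passed for 7 with DESeq2, for 13 without control FFSS replicate 1 (over all genes, calls went from 97 to 1138 without it), and for 1 when any of 10 other libraries was left out. Their median log2 fold change was −0.21 with FFSS in control cells and 0.15 between genotypes in static cells.

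**Figure D5:**
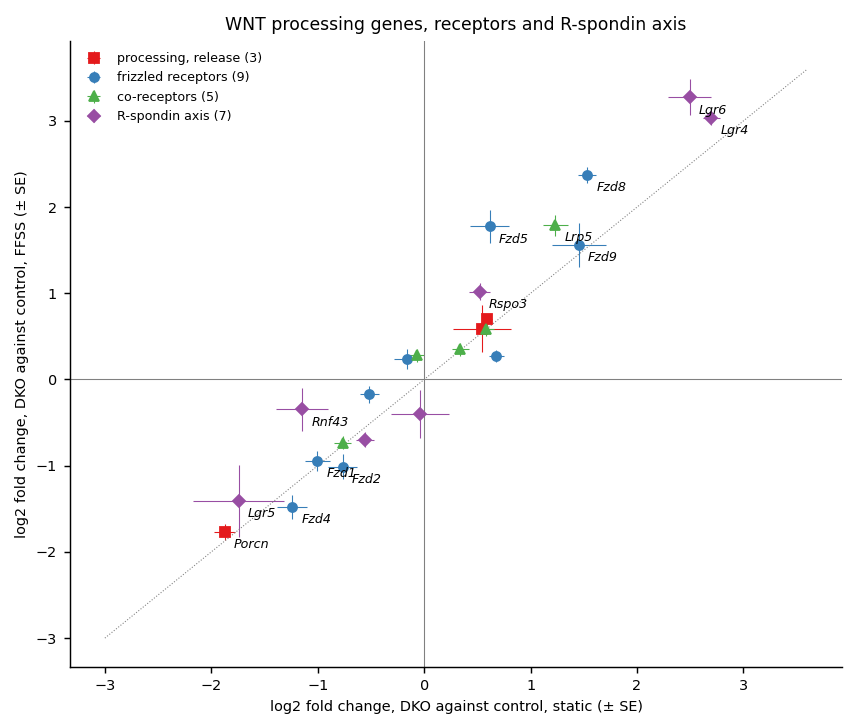
Log2 fold change ± SE of DKO against control cells in static (horizontal axis) and FFSS (vertical axis) libraries for the 24 tested genes of WNT release, frizzled receptors, co-receptors and the R-spondin axis; the dotted line marks equal values. Lgr4 and Lgr6 are at the upper right and Porcn at the lower left, and Fzd5 and Fzd8 lie above the line.

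Marker genes of bone and cartilage cells moved with the same groups. The summed level of 6 osteocyte markers was 78.1 to 117 CPM in static control, 62.4 to 184 in control FFSS, 3600 to 3687 in static DKO and 3619 to 4023 CPM in FFSS DKO libraries. In static control cells Dmp1 had 444 to 714, Phex 453 to 751, Sost 28 to 236 and Mepe 0 to 4 counts, and Fgf23 had at most 1 count in any library of either genotype. The sum of 6 chondrocyte markers was 50.8 to 103 CPM in control and 2006 to 2951 CPM in DKO libraries, and Matn1, a cartilage matrix gene, was at 0 in all control libraries. Of the 5 chondrocyte markers tested, 4 were called higher in DKO cells in both conditions, and of the 5 osteocyte markers tested, 4 were called higher and 1 (Pdpn) lower, also in both, against 7.98% and 7.3% of all genes in static and 8.25% and 8.96% in FFSS cells. The 7 osteoblast markers summed to 30493 to 36869 CPM in static control, to 31285 in control FFSS replicate 1 and to 10583 and 11184 CPM in replicates 2 and 3. Wnt6 and Wnt5b were likewise highest in replicate 1 of that group. In DKO cells the osteoblast sum was 96284 to 107698 CPM. Col1a1 and Col1a2 together made up most of this sum in both genotypes. Of the 7 osteoblast markers, 3 were called higher in static DKO cells, and the other 4 did not pass. Under FFSS all 7 passed as higher and 5 were called. The shares of all genes called higher were 7.98% and 8.25%. The sum of 3 leukocyte markers went from 15.5 to 28.5 CPM in control to 2.80 to 3.45 CPM in DKO libraries. Most of it was Cd68, while the defining marker Ptprc had at most 3 counts in any library. The third, Csf1r, went the other way in static cells, with 8, 5 and 5 counts in control and 11, 13 and 15 in DKO libraries. Under FFSS it had 12, 24 and 16 counts in control and 10, 7 and 12 in DKO libraries. Csf1r was called higher with FFSS in control cells (1.43, adjusted p of 0.00784 in edgeR) and in static DKO cells (1.17, adjusted p of 0.0161). Between genotypes under FFSS it was at −0.65, not passing (adjusted p of 0.108 in edgeR). The 5 adipocyte markers summed to 22.6 to 39.0 CPM in control and 17.8 to 24.6 CPM in DKO libraries, mostly Cebpa, with Adipoq at 0 to 3 counts. Muscle markers summed to 3.86 to 10.4 CPM over all libraries, and endothelial markers to at most 0.537 CPM. The part of these markers in the ligand differences was not tested.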

How the data were processed

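RNA-seq libraries were made from total RNA of cultured Ocy454 cells. The authors used a BGISEQ instrument for single-end sequencing, STAR for alignment to mm9, and HTSeq on Ensembl genes for counting (HTSeq's version is stated differently in different places). The deposited values are raw counts per gene, not normalised and, per the file naming, not stranded; reads that align to several places or to shared stretches are left out. Samples were grouped by their titles.

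Counts of the 12 libraries (17.6 to 19.2 M each) were fitted as 4 groups with edgeR 4.0.16 (R 4.3.3), robust quasi-likelihood and TMM scaling. Following the study, genes with 0 counts in 2 or more libraries were removed (14904 of 24360 with any count remained), a gene passed at an adjusted p under 0.05, and was called if it also changed more than 2-fold. SEs come from the fold change and F. CPM and RPKM (union exon length) use TMM-scaled totals. The SD is over n = 3 libraries. Counting intervals (95%, exact) and the 3-count floor cover counting error only. The fit was tested on simulated counts. Named were all 10 ligands, comparison ligands above 3 counts in each library of a group, up to 3 called genes per pathway list (otherwise the most abundant member), the targeted genes and the 3 most similar patterns. Promoters are RefSeq sequences. Replicate numbers recur in each group, but the labels name no shared batch and deviations of same-numbered libraries correlated at 0.00226 on average (18 pairs), so they were not treated as pairs. Alternatives were other scalings, filters and tools (DESeq2 1.42.0, limma-voom 3.58.1), a replicate block, each library left out, 6-library fits and the share of reads outside genes as a covariate. The members and lists were chosen with earlier results of these data known.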

Additional observations from a re-analysis of the deposited data

Results flagged for a closer look

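The effect of FFSS differed between genotypes, by edgeR's interaction test, for 3 of the 24 genes of the WNT pathway tested, 2 with a positive and 1 with a negative interaction, against 2.28% and 1.68% of all genes, and for none of the 9 ligands tested. For Fzd8 the interaction was 0.84 on the log2 scale (adjusted p of 0.00238): it fell by 0.91 with FFSS in control cells, with 916, 872 and 999 counts in static and 557, 445 and 557 in FFSS libraries, and was at −0.07 in DKO cells. It passed in every alternative run, between 0.72 and 0.91. Fzd5 had an interaction of 1.16 (adjusted p of 0.0386), which was 1.47 without control FFSS replicate 1 and did not pass without any filter on low counts (1.17, adjusted p of 0.0896) or in 10 of the 12 fits that left out a library (adjusted p up to 0.0975). Fzd6 had an interaction of −0.41 (adjusted p of 0.0448): it rose with FFSS by 0.59 in control cells, with 663, 731 and 647 counts in static and 981, 1151 and 1103 in FFSS libraries, and by 0.18, not passing, in DKO cells. It passed in 1 of the 12 fits that left out a library (without control FFSS replicate 1, at −0.45, adjusted p of 0.000284). It did not pass with RLE size factors, a replicate block or the share of reads outside genes as a covariate either (adjusted p of 0.0512, 0.0502 and 0.0629).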

How the results depend on the processing

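Over all alternatives and ligands, 629 of the log2 fold changes kept their direction and side of the threshold, 30 no longer passed, 15 came to pass and 28 changed sign. Of these, Wnt5b and Wnt6 with FFSS in control cells had passed, and Wnt6 between genotypes under FFSS came to pass. Wnt11 passed in every alternative run, at 0.77 to 0.95 with FFSS in control cells, 1.05 to 1.30 in DKO cells, −2.46 to −2.22 between genotypes in static and −2.19 to −1.90 in FFSS cells, and so did Wnt5b between genotypes (2.36 to 2.59 and 2.74 to 3.35). The 5 ligands passing with FFSS in control cells became 3 in a fit of the 6 libraries of the comparison (Wnt11 and Wnt5a of the 5, and Wnt7b, which that fit tests), 1 with the share of reads outside genes as covariate and 2 to 6 over the fits that left out 1 library (6 without control FFSS replicate 1). In DKO cells, 4 passed instead of 1 in a fit of 6 libraries. For the interaction 1 passed with DESeq2 and 1 without a filter, and 5 without control FFSS replicate 1, against 0. With the longest transcript as length, the summed WNT level was 61.3 RPKM in static control, 63.0 in static DKO and 64.2 in FFSS DKO cells. The cause of these changes was not tested. The covariate was higher in every FFSS than in every static library of the same genotype, so its fits cannot fully separate it from FFSS. A fit with the replicate number as a block left the ligands passing at 5 and 1 with FFSS in control and DKO cells, 0 for the interaction, and 7 and 8 between genotypes; over all genes it called 882 with FFSS in control cells against 884, of which 839 were shared. Values on the log2 scale that changed sign follow. With the covariate these were, for FFSS in control cells, Wnt4 (0.29), Wnt5b (0.0928), Wnt6 (0.0434), Wnt10a (0.36) and Wnt1 (0.50), in DKO cells Wnt4 (0.12), Wnt5a (0.0244), Wnt5b (0.0798) and Wnt6 (0.0080), and for the interaction Wnt4 (−0.17), Wnt5b (−0.013) and Wnt6 (−0.035). With library totals alone Wnt2b was at 0.09 with FFSS in control cells, and with limma-voom Wnt6 at 0.045 between genotypes under FFSS. Over the fits that left out 1 library, the ranges that crossed 0 were, for FFSS in control cells, Wnt2b (−0.25 to 0.089), Wnt4 (−0.44 to 0.00073) and Wnt10a (−0.45 to 0.037), in DKO cells Wnt2b (−0.12 to 0.41) and Wnt4 (−0.13 to 0.016), for the interaction Wnt2b (−0.082 to 0.45), Wnt4 (−0.052 to 0.39) and Wnt9a (−0.32 to 0.064), and between genotypes under FFSS Wnt6 (−0.35 to 0.50). At 0.5 or 2 CPM, 11 or 9 of the 19 ligands were expressed, against 10 at 1 CPM. Ligands with few counts (Wnt2b, Wnt7b, Wnt9a, Wnt10a) have wide errors.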
